A study of Mus musculus with 2 samples.

Results

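Hepatocytes and cholangiocytes are the epithelial cells of the liver itself, and here they are the host cells that were recovered together with metastases of an injected breast cancer line. They were taken as the cells that the authors placed in their class of hepatocytes and cholangiocytes, which held 79 of the 44371 deposited cells. The authors' finer labels divided the class into 54 hepatocytes and 25 cholangiocytes. The tested metastases grew from ZDHHC17-silenced (shZdhhc17) 4T1 cells and the control metastases from 4T1 cells with a non-targeting hairpin (shSCR). 4T1 is a mouse triple-negative breast cancer line. In both groups the cells carried a lentiviral pLKO.1 hairpin, were selected with puromycin and were injected into the spleen of female BALB/c mice aged 6 to 8 weeks, 250000 cells per mouse. The spleen was removed 2 minutes later. The liver cells of these mice carried no hairpin by design, so Zdhhc17, which encodes a palmitoyltransferase, was silenced in the cancer cells and not in the cells described here.

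Metastases were cut out under a microscope on day 14, and the suspensions of 3 mice were pooled into 1 library per group on a BD Rhapsody cartridge, a microwell system for single-cell RNA sequencing. With 1 library per group there is no test between groups, the spread between mice is unknown, and the intervals below cover counting error only. Per the labels' protocols the tissue was digested for 45 minutes at 37 °C, spun at 300g and passed through strainers of 70 and 40 µm, so the shares are those of the cells that came through these steps. The files used here give the UMIs (counted molecules), detected genes, mitochondrial percent, cluster and map position of each cell, and flags per gene. No deposited cell had under 500 UMIs or over 15.0% mitochondrial UMIs, so all shares below are those among cells within these values. Levels of single genes in single cells were not analysed here, so the labels could not be set against the level of Alb, Apoa1, Ttr, Sox9 or Krt19 in these cells.

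As background, hepatocytes make most of the proteins of blood plasma, among them albumin, apolipoproteins, transport proteins and clotting factors, and they carry out gluconeogenesis, the urea cycle and the synthesis of bile acids. They are large, rich in mitochondria and often polyploid, and their tasks differ between the portal and the central end of the liver lobule. Cholangiocytes line the bile ducts, modify bile and keep a keratin-rich epithelial programme that includes the transcription factor Sox9 and the keratin Krt19. Keratins and junction proteins are shared by bile duct cells and by breast carcinoma cells.

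Hepatocytes and cholangiocytes were the rarest of the 17 annotated types in both libraries. The class held 36 of 21511 cells of the shZdhhc17 library, 0.167% (95% exact binomial interval 0.117 to 0.232), and 43 of 22860 cells of the shSCR library, 0.188% (0.136 to 0.253). The ratio of the shares was 0.890 with a counting interval of 0.555 to 1.42. The interval includes 1, so a difference was not detectable at this depth.

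Hepatocytes made up 0.116% of the shZdhhc17 library (25 cells, interval 0.0752 to 0.172) and 0.127% of the shSCR library (29 cells, 0.0850 to 0.182), a ratio of 0.916 (0.515 to 1.62). Cholangiocytes made up 0.0511% of the shZdhhc17 library (11 cells, 0.0255 to 0.0915) and 0.0612% of the shSCR library (14 cells, 0.0335 to 0.103), a ratio of 0.835 (0.343 to 1.98). Neither type differed between the libraries beyond counting error. Cancer cells made up 36.9% of the shZdhhc17 and 27.2% of the shSCR library, so the shares of all other types also depend on them. Among cells other than cancer cells hepatocytes were at 0.184% in shZdhhc17 and 0.174% in shSCR, a ratio of 1.06 (0.594 to 1.87). The ratio thus changed side of 1 with the denominator, inside its interval.

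The makeup of the class was close in the libraries. Cholangiocytes were 30.6% of the class in shZdhhc17 (interval 16.3 to 48.1) and 32.6% in shSCR (19.1 to 48.5). Each type was a whole cluster of its own in the authors' first clustering of all cells, which gave 138 clusters with a median of 325 cells. The hepatocyte cluster held 54 cells, all labelled hepatocytes, and was the ninth smallest. The cholangiocyte cluster held 25 cells, all labelled cholangiocytes, and was the fifth smallest. Neither was clustered again. The authors named cells by the marker levels of their clusters, so that each cluster holds 1 label follows from the way the labels were made. The shZdhhc17 library gave 46.3% of the hepatocyte cluster (32.6 to 60.4) and 44.0% of the cholangiocyte cluster (24.4 to 65.1), against 48.5% of all cells, so neither cluster came mainly from 1 library. Of the 79 cells, 1 had a cell barcode that occurs in both libraries, as 609 barcodes did in the full table.

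On the authors' map of all cells (UMAP, a projection that places cells of similar expression close together), the hepatocytes and the cholangiocytes formed separate, tight islands. All 10 nearest neighbours of each hepatocyte were hepatocytes, and all 10 nearest neighbours of each cholangiocyte were cholangiocytes, in both libraries. This is common on the map. The average share of own-type neighbours was also 100% for basophils, cancer cells, erythrocytes, and conventional and plasmacytoid dendritic cells. It was at least 92.0% for all other types but NK cells, at 17.9%. No cell of another label lay inside the circle that holds either island. None of the 24 labels for doublets and unknown cells had a hepatocyte or a cholangiocyte among the 10 nearest annotated neighbours of its cells. The islands lay far apart, with 1.02 map units between their centres on a map 1.77 units wide and 1.91 high. Among annotated types the nearest cell was a cancer cell for all 25 cholangiocytes, at a median distance of 0.0962 units. For all 54 hepatocytes it was an NK cell, at a median of 0.405 units. Of all labels, the centre nearest to that of the hepatocytes belonged to cells the authors marked as possible doublets, at 0.258 units. The map was made from the same expression values as the clusters that gave the labels. Distances on such a map have no unit and are given as a description.

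**Figure D1:**
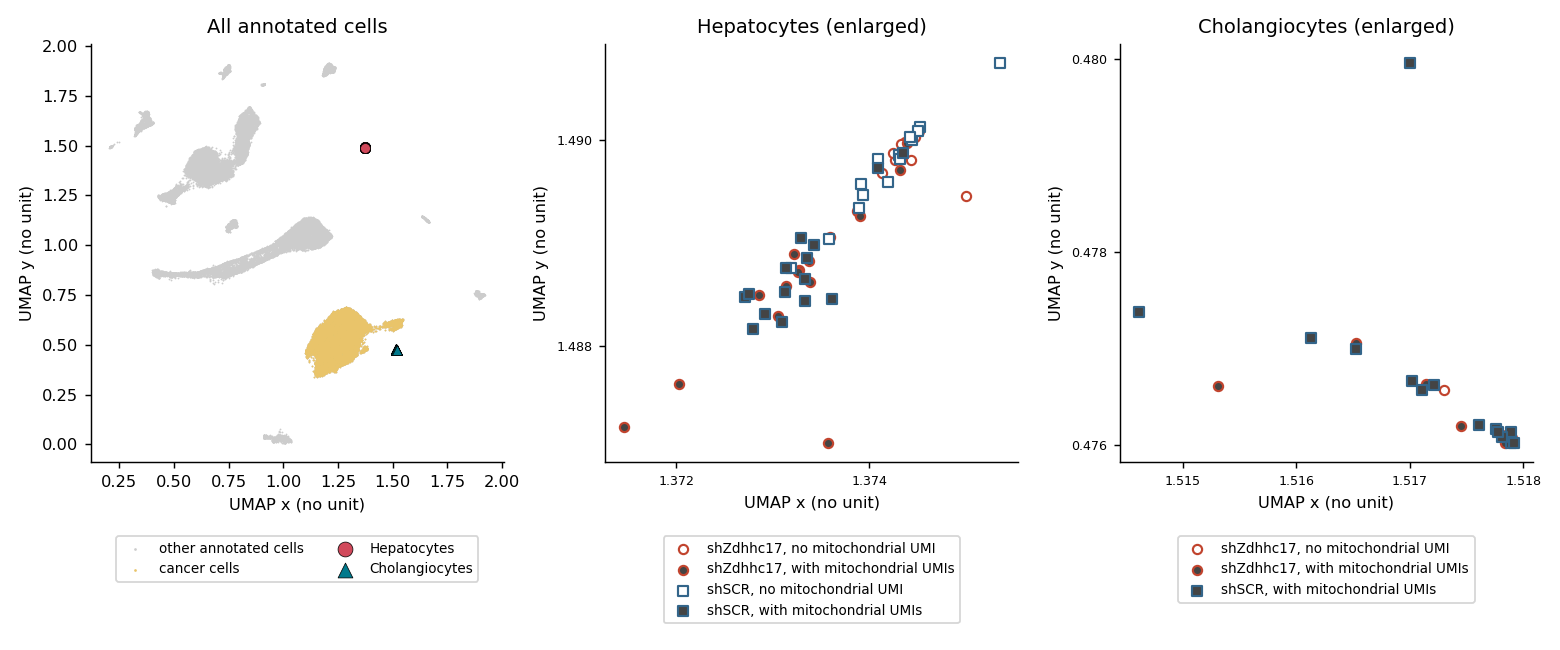
Position on the authors' UMAP (both axes without unit): all annotated cells at the left, and the islands of hepatocytes and cholangiocytes enlarged. In the enlarged panels 1 point is 1 cell, open points are cells without a mitochondrial UMI, circles are shZdhhc17 and squares shSCR. Of the 23 hepatocytes without mitochondrial UMIs, 9 of 9 in shZdhhc17 and 12 of 14 in shSCR lie above the median UMAP x of all hepatocytes. Of those with mitochondrial UMIs, 4 of 16 in shZdhhc17 and 2 of 15 in shSCR do.

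Hepatocytes and cholangiocytes differed in median depth, while their ranges of UMI counts overlapped. Hepatocytes were shallow, with a lowest, median and highest UMI count of 732, 1610 and 33280 in shZdhhc17 and of 581, 2652 and 18206 in the shSCR library. Their range covered more than an order of magnitude in each library, and the ranges overlapped. Cholangiocytes had 866, 7834 and 26946 UMIs in shZdhhc17, against 3116, 8458.5 and 29025 in shSCR. In order of the median UMI count from the lowest, hepatocytes were the fifth and cholangiocytes the thirteenth of the 17 types in both libraries. The median of cancer cells was 10531 UMIs in shZdhhc17, against 13075 in shSCR. The hepatocyte median was 0.153 of the cancer cell median in shZdhhc17 and 0.203 in shSCR. For cholangiocytes the quotient was 0.744 in shZdhhc17 and 0.647 in shSCR. Kupffer cells, the resident macrophages that share the liver with both types, stood at a median of 8256 in shZdhhc17, against 10071 in shSCR. The cholangiocyte median was 0.949 of theirs in shZdhhc17 and 0.840 in shSCR.

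The median UMI count was lower in shZdhhc17 than in shSCR for all 17 types, with ratios from 0.551 to 0.926 and a median ratio of 0.801. Hepatocytes had a ratio of 0.607 and cholangiocytes the highest of the 17, 0.926. The lower depth of the shZdhhc17 hepatocytes therefore lies within the range of the other types. Fewer detected genes went with it. Hepatocytes had a median of 856 genes in shZdhhc17 (range 426 to 4733) and 1148 in shSCR (394 to 3727). Cholangiocytes had 2947 in shZdhhc17 (624 to 5444), against 3102.5 in shSCR (1808 to 5640).

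**Figure D2:**
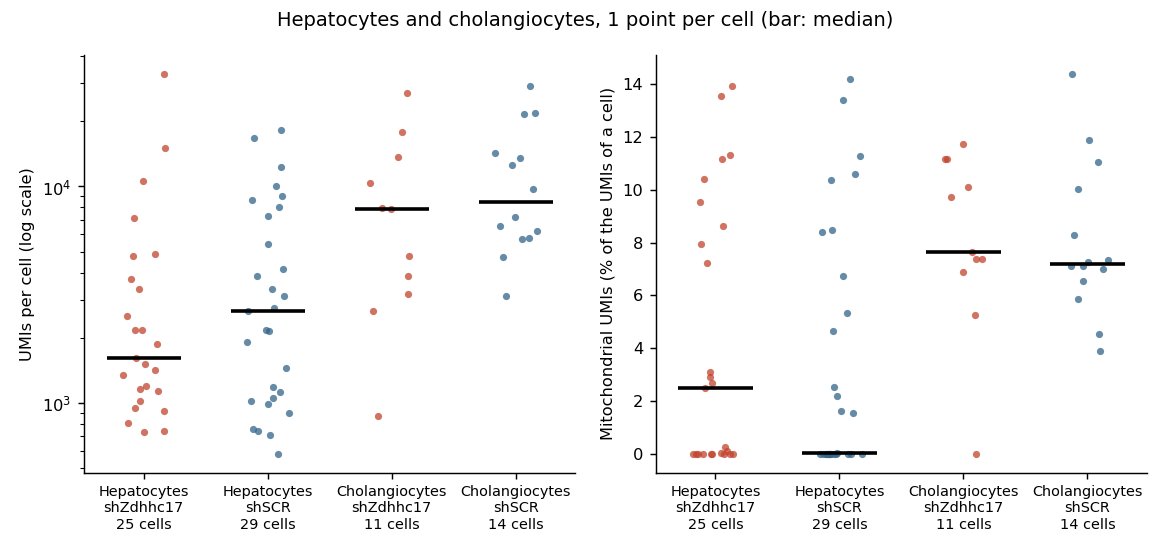
UMIs per cell (left, log axis) and mitochondrial UMIs in percent of all UMIs (right) for each hepatocyte and cholangiocyte, with shZdhhc17 left of shSCR. Each point is 1 cell and each bar a median; the hepatocyte medians of 1610 (shZdhhc17) and 2652 UMIs (shSCR) lie below the cholangiocyte medians of 7834 (shZdhhc17) and 8458.5 (shSCR), and many hepatocytes lie at a mitochondrial percent of 0.

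Mitochondrial RNA divided the hepatocytes into cells that had it and cells that did not. In shZdhhc17, 9 of the 25 hepatocytes had no mitochondrial UMI at all, 3 lay above 0 but under 1%, and 13 were at 1% or more. In shSCR, 14 of the 29 had none, 1 lay under 1% and 14 were at 1% or more. Among hepatocytes with any mitochondrial UMI the median was 7.59% in shZdhhc17 and 6.73% in shSCR, near the median of 7.54% (shZdhhc17) and 7.46% (shSCR) among such cancer cells. Over all hepatocytes the median was 2.48% in the shZdhhc17 library, against 0.0363% in the shSCR library. Without the deepest 5% of hepatocytes it was 0.247% in shZdhhc17 and 0 in shSCR. Mitochondrial genes encode subunits of the respiratory chain, which hepatocytes use heavily. The authors' values are those left after their correction for ambient RNA, the free RNA of the suspension, and the part of that correction in the zeros was not tested.

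Cells without a mitochondrial UMI made up 36.0% of hepatocytes in shZdhhc17 (interval 18 to 57.5) and 48.3% in shSCR (29.4 to 67.5). Each was the highest share of the 17 types in its library, and the intervals overlap. Basophils were at 31.7% in shZdhhc17 and 11.3% in shSCR, and neutrophils at 31.3% in shZdhhc17 and 15.3% in shSCR. In shZdhhc17 the interval of hepatocytes holds the values of both of these types. In shSCR it lies above the intervals of both (basophils 4.27 to 23.0, neutrophils 14.5 to 16.2). For cancer cells the share was 3.08% (shZdhhc17) and 3.19% (shSCR), and for Kupffer cells 0.533% (shZdhhc17) and 0.741% (shSCR). Among cholangiocytes 1 of 11 in shZdhhc17 and 0 of 14 in shSCR lacked mitochondrial UMIs, and the exact interval of 0 of 14 reaches up to 23.2%.

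**Figure D3:**
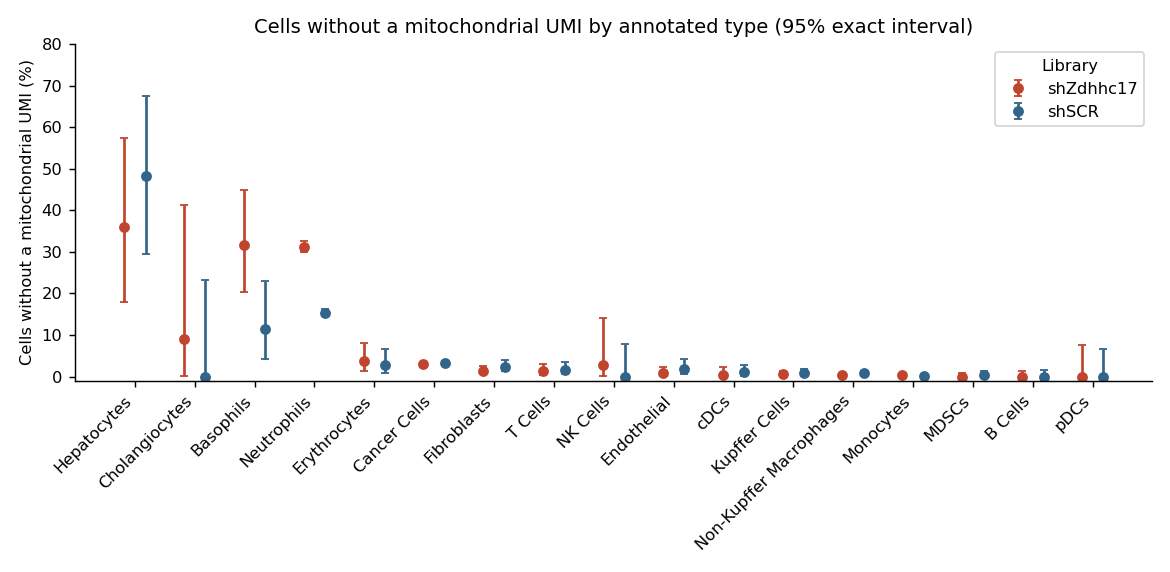
Percent of cells without a single mitochondrial UMI in each of the 17 annotated types, with the 95% exact binomial interval (counting error only) as the bar; shZdhhc17 is drawn left of shSCR. Hepatocytes have the highest value in both libraries, 36.0% in shZdhhc17 and 48.3% in shSCR, followed by basophils and neutrophils in shZdhhc17.

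Low depth alone can leave a cell without a mitochondrial UMI, so the share was also computed with each cell thinned to 500 UMIs, the lowest count of any deposited cell, which left out no cell. The expected share was then 42.4% for hepatocytes in shZdhhc17 and 51.1% in shSCR. In shZdhhc17 it was 36.2% for neutrophils, 38.6% for basophils and 3.75% for cancer cells, and in shSCR 19.1%, 15.1% and 4.13% for the same types. With a minimum of 1000 UMIs and no thinning, hepatocytes stood at 35.0% in shZdhhc17 (7 of 20) and 47.8% in shSCR (11 of 23), while neutrophils came to 14.2% in shZdhhc17 and 9.32% in shSCR. Basophils of that depth came to 22.6% in shZdhhc17, inside the hepatocyte interval of 15.4 to 59.2, and to 6.12% in shSCR, below the hepatocyte interval of 26.8 to 69.4. The hepatocyte shares were therefore nearly as high without the shallow cells.

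Some deep hepatocytes also lacked mitochondrial UMIs. Of the 4 hepatocytes with at least 5000 UMIs in shZdhhc17, 0 lacked them, for which the exact interval reaches up to 60.2%. Of the 9 such hepatocytes in shSCR, 4 had none (44.4%, interval 13.7 to 78.8), and their UMI counts were 7335, 8649, 9029 and 12346. These few cells do not show a difference between the libraries beyond counting error. In the whole series 17 of 26126 cells of that depth lacked mitochondrial UMIs, and the hepatocyte with 12346 UMIs was the deepest of all cells without any. Among cancer cells of that depth 9 of 10534 lacked them, and among neutrophils 0 of 3350, for which the exact interval reaches up to 0.110%. The limit of 5000 UMIs was chosen after the values were seen.

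The hepatocytes with and without mitochondrial UMIs differed in median place within their island, while their ranges of UMAP x overlapped in both libraries. Over both libraries the median UMAP x was 1.3743 without and 1.3733 with mitochondrial UMIs, on a map 1.77 units wide. Median depth differed too, but the ranges of UMI counts overlapped in both libraries, and no test was made. Those without had a lowest, median and highest UMI count of 732, 1513 and 3364 in shZdhhc17, and 755, 1312.5 and 12346 in shSCR. Those with mitochondrial UMIs had 742, 1894.5 and 33280 in shZdhhc17 and 581, 3357 and 18206 in shSCR. On the map, 9 of the 9 cells without mitochondrial UMIs in shZdhhc17, and 12 of 14 in shSCR, lay above the median UMAP x of all hepatocytes, against 4 of 16 (shZdhhc17) and 2 of 15 (shSCR) of the others. Across the 54 hepatocytes of both libraries the Spearman correlation of mitochondrial percent with UMAP x was -0.70, and that of UMI count with UMAP x was -0.38. Across the 25 cholangiocytes, mitochondrial percent and UMAP x had a correlation of -0.10. These cells share their libraries, and the correlations are descriptions without a test. The authors based the map on variable genes, so its order is not independent of which genes a cell expresses.

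Some hepatocytes were at the other extreme. In shZdhhc17 5 of 25 hepatocytes and in shSCR 5 of 29 had at least 10% mitochondrial UMIs, and the highest were 14.0% in shZdhhc17 and 14.2% in shSCR. No deposited cell of any type exceeded 15.0%, and cells above it were not analysed here. Cholangiocytes had a lowest, median and highest mitochondrial percent of 0, 7.63 and 11.7 in shZdhhc17 and 3.89, 7.21 and 14.4 in shSCR. Their medians were the sixteenth of the 17 types from the lowest in shZdhhc17 and the fifteenth in shSCR. Over the summed UMIs of a type, mitochondrial genes took 8.06% in the shZdhhc17 hepatocytes, against 5.14% in the shSCR ones. In cholangiocytes they took 9.48% in shZdhhc17, against 8.18% in shSCR. Without the deepest cholangiocyte of each library the sums were 8.86% in shZdhhc17 and 8.54% in shSCR. A single hepatocyte with 33280 UMIs and 13.5% mitochondrial UMIs held 31.4% of all hepatocyte UMIs of the shZdhhc17 library. Without it, and without the deepest shSCR hepatocyte, the sums were 5.56% in shZdhhc17 and 4.16% in shSCR.

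The number of genes at a given depth measures how evenly the RNA of a cell is spread over genes. For each cell of the class the detected genes were divided by the median of the other annotated cells of the same library with UMIs within 10%. Cholangiocytes had more genes than such cells, with a median ratio of 1.08 in shZdhhc17 (range 0.907 to 1.17) and 1.14 in shSCR (0.988 to 1.37). Of the 25 cholangiocytes, 3 were below 1. Endothelial cells had medians of 1.08 in shZdhhc17 and 1.12 in shSCR, and cancer cells of 1.02 in shZdhhc17 and 1.03 in shSCR. Plasmacytoid dendritic cells were higher than cholangiocytes, with 1.16 in shZdhhc17 and 1.22 in shSCR. For types outside the class the matched cells include cells of the same type, which draws their ratios towards 1.

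Hepatocytes had a median ratio of 0.912 in shZdhhc17 (16 of 25 below 1, range 0.702 to 1.17) and 0.998 in shSCR (16 of 29 below 1, range 0.264 to 1.26). The ranges of the libraries overlapped widely. Medians below 1 in both libraries were also found for neutrophils (0.911 in shZdhhc17, 0.894 in shSCR) and basophils (0.891 in shZdhhc17, 0.980 in shSCR). The same held for erythrocytes (0.916 in shZdhhc17, 0.949 in shSCR) and B cells (0.973 in shZdhhc17, 0.966 in shSCR). All remaining types were above 1 in at least 1 library. Hepatocytes without mitochondrial UMIs had medians of 0.891 in shZdhhc17 and 1.04 in shSCR, and those with them 0.918 in shZdhhc17 and 0.938 in shSCR, so the ratio did not divide them the same way in both libraries.

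**Figure D4:**
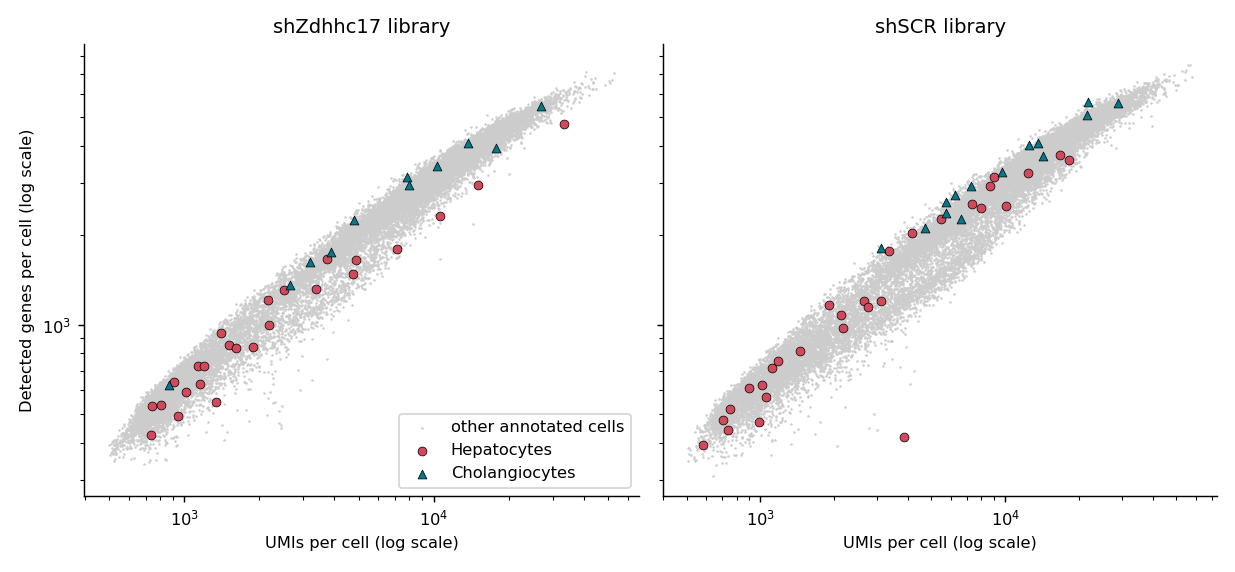
Detected genes against UMIs per cell (both axes logarithmic) in the shZdhhc17 library (left) and the shSCR library (right), with hepatocytes as circles, cholangiocytes as triangles and other annotated cells in grey. Cholangiocytes lie along the upper part of the grey band, and a single shSCR hepatocyte with 417 genes at 3859 UMIs lies far below it.

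A single shSCR hepatocyte stood apart from all others of the class, and it was picked out after its values were seen. It had 3859 UMIs from 417 genes, or 9.25 UMIs per gene, and 14.2% mitochondrial UMIs. Its gene ratio was 0.264, while the next lowest hepatocyte of that library had 0.760. The 875 other annotated shSCR cells with UMIs within 10% had a median of 1580 genes, and the lowest of them had 630.

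The gene tables show which genes of these types entered the authors' analysis. They mark 1000 of 28523 genes, or 3.51%, as the most variable over all cells, on which the map was built. Among protein-coding genes the share was 4.66%. Of the markers, Alb (albumin, the main plasma protein) and Apoa1 (the main protein of high-density lipoprotein) were marked. Ttr (transthyretin, a carrier of thyroid hormone and retinol-binding protein), Sox9 and Krt19 were listed but not marked. These flags come from all cells of both libraries, and they say neither in which cells a gene was high nor how high it was.

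Among the listed hepatocyte genes the flag fell mainly on secreted plasma proteins. The lists were chosen with earlier results of these data known, so their counts are descriptions. Against 3.51% of all genes and 4.66% of protein-coding genes, 12 of the 22 plasma protein genes were marked. They included the 3 fibrinogen chain genes Fga, Fgb and Fgg, whose products form the fibrin clot, and Ahsg (fetuin-A, an inhibitor of calcification). The haem-binding Hpx (hemopexin), Gc (the vitamin D binding protein) and Ambp (the precursor of alpha-1-microglobulin and bikunin) were marked too, as were Apoc1, Apoe and Trf (transferrin, the iron carrier). Apoe is also made by macrophages, and Apoe, Trf and Ambp are 3 marked genes that are also in the authors' gene table for neutrophils. The other 10, among them Apoa2, Apob, Apoc3, Serpina1a, Hp, Rbp4 and Vtn, were listed without the mark.

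Of 18 genes of hepatocyte metabolism 1 was marked, Arg1 (arginase 1 of the urea cycle), which macrophages also express. The urea cycle genes Cps1 and Ass1, the gluconeogenic Pck1, G6pc and Fbp1, and Cyp7a1, the rate-limiting enzyme of the classic pathway of bile acid synthesis, were listed without it. None of 7 listed periportal genes and none of 7 listed pericentral genes were marked. The 10 transcription factors, Hnf4a and Foxa2 among them, and the 10 transporters of bile acids and lipids, such as Abcb11 (the bile salt export pump) and Slc10a1 (the uptake transporter for bile acids), were all listed and unmarked. The hepatocyte lists together, transporters included, had 13 of 71 listed genes marked, 18.3%, against 3.51% of all genes and 4.66% of protein-coding genes. No gene on the lists for the ends of the lobule was among them. At those shares short lists with 0 or 1 marked gene lie near the value for all genes. They therefore say nothing on metabolism or on the ends of the lobule. The periportal Cyp2f2 and the pericentral Cyp1a2 were not among the listed genes.

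Of 20 cholangiocyte genes 2 were marked, Spp1 (osteopontin) and Aqp1 (a water channel). This is 10.0%, against 3.51% of all genes and 4.66% of protein-coding genes. With so short a list, no conclusion is drawn from that share. As background, Spp1 is known to be made by macrophages too, and Aqp1 by endothelium, and neither was measured by cell type here. The keratins Krt7, Krt8, Krt18 and Krt19, the adhesion molecules Epcam and Cdh1, the chloride channel Cftr and the factor Sox9 were listed without the mark. The list of 4T1 epithelial genes, which shares Krt8, Krt18, Krt19, Epcam, Cdh1, Cldn4 and Cldn7 with it, had 1 of 11 marked, the siderophore-binding Lcn2. In the lists for other cells of the liver, 7 of 8 Kupffer cell genes, 7 of 7 endothelial genes and 6 of 7 stellate and fibroblast genes were marked. Those lists are short and, like all gene lists here, were chosen with earlier results of these data known. They also stand for more cells: 1290 Kupffer cells, 666 endothelial cells and 1055 fibroblasts, against 25 cholangiocytes. The counts therefore do not rank the types.

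The authors' gene table for neutrophils, a blood cell type found in the same metastases, lists 21544 of the 28523 genes, 75.5%, and 805 of the 1000 marked ones, 80.5%. It held 4 of the 22 plasma protein genes (Apoe, Trf, Hp and Ambp), and neither Alb, Apoa1 nor Ttr. It held 15 of 71 genes of the hepatocyte lists together, 21.1%, and 4 of the 13 marked ones, 30.8%. Of the 20 cholangiocyte genes it held 12, 60.0%, Sox9 and Epcam among them but not Krt19. The rule by which a gene entered that table is not given in the sources used here, and absence from it says nothing on the level of a gene in hepatocytes.

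**Figure D5:**
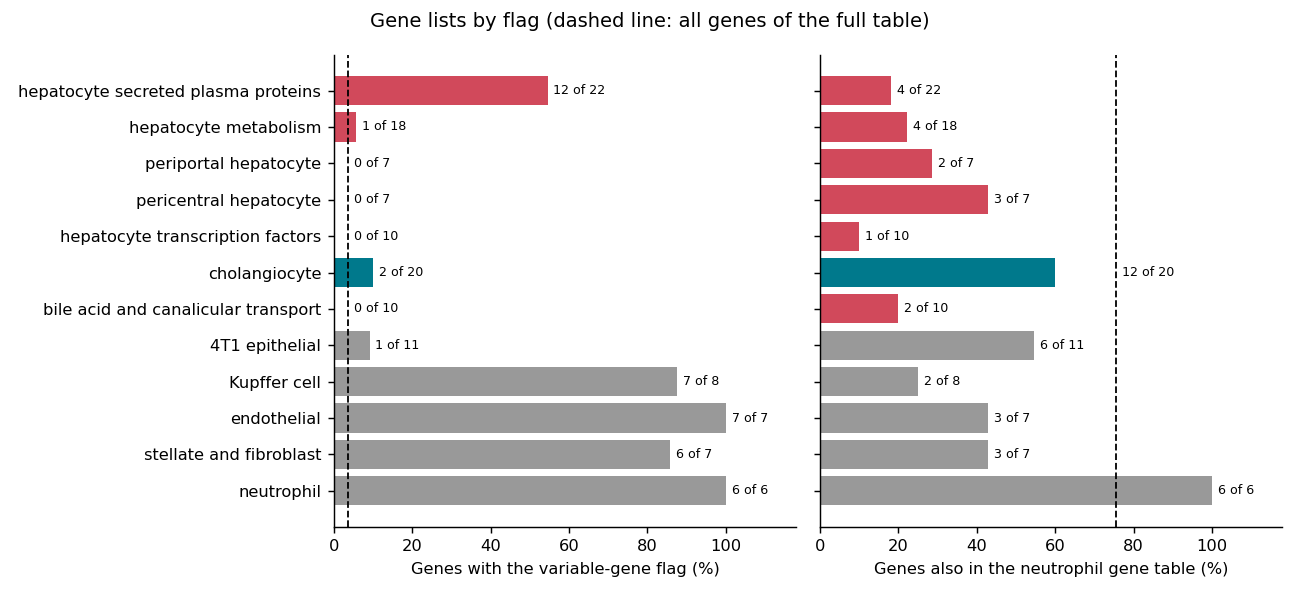
For each gene list, the percent of its listed genes that carry the authors' variable-gene flag (left) and the percent that are also in the neutrophil gene table (right); red bars are hepatocyte lists, the green bar is the cholangiocyte list, and the dashed lines are all genes, at 3.51% and 75.5%. Plasma protein genes stand at 12 of 22 for the flag and 4 of 22 for the neutrophil table.

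The marker genes lie at these places on GRCm38, by the GENCODE M21 annotation, and all are protein-coding. Alb is on chromosome 5 (90460897 to 90476602, plus strand), with Gc upstream of it on the same chromosome (89417522 to 89457898, minus strand). Apoa1 is on chromosome 9 (46228580 to 46230466, plus strand) and Ttr on chromosome 18 (20665280 to 20674321, plus strand). Krt19 (100140810 to 100148665, minus strand) and Sox9 (112782224 to 112787760, plus strand) are both on chromosome 11. The 3 marked fibrinogen genes are neighbours on chromosome 3, with Fgg from 83007724 to 83015049, Fga from 83026076 to 83033627 and Fgb from 83040141 to 83049863. Apoc1 (19689481 to 19692660) and Apoe (19696109 to 19699188) are likewise next to each other on chromosome 7, both on the minus strand.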

How the data were processed

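Cells were called by the BD Rhapsody pipeline, corrected for ambient RNA, clustered and named from marker levels by the authors, per the file headers (symbols of GRCm38, mm10). The submitters' processing notes list Seurat 4.1.0. No source used here names the tool for ambient correction. Deposited values are whole-number counts per cell (UMIs and detected genes), the percent of UMIs from mitochondrial genes, UMAP coordinates (the authors' score without unit) and flags per gene.

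The library totals were 172527305 UMIs in shZdhhc17 and 214842365 in shSCR. The class held 206220 of them in shZdhhc17 and 294417 in shSCR. Members came from the authors' class label, doublets and unknown cells stayed in the denominators, and no doublet caller was run. Mitochondrial UMIs were recovered from percent and total (99.96% of cells whole within 0.001). Thinned shares are exact hypergeometric expectations. Intervals are exact binomial (Clopper-Pearson) at 95%, and ratio intervals are conditional on the summed count. Python 3.11.15, scipy 1.17.1 and pandas 2.3.3 were used. Members and gene lists were chosen with earlier results of these data known. The rule named the 5 markers and each gene of the hepatocyte and cholangiocyte lists with the variable-gene flag; other list genes are named as examples of unmarked ones.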

Additional observations from a re-analysis of the deposited data

How the results depend on the processing

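In all, 60 values under other settings were set beside 27 results, and 57 stayed inside the counting interval or, for medians over cells, the 95% order-statistic interval of the value they were set against. The settings were other denominators, at least 1000 UMIs, low mitochondrial percent, removal of the deepest 5% of cells, other numbers of neighbours, other windows and thinning. The windows, the thinning and the results on cells without mitochondrial UMIs were chosen after the data were seen. Some of the 60 values could not differ from the result they were set against, and they count among the 57. Protein-coding genes only, also among the settings, could not change the shares of marked genes. Every listed gene of these lists is protein-coding. Fewer neighbours, or neighbours without doublet and unknown labels, could not change the share of the own type on the map. All neighbours in the main setting were already of the own type. Many settings keep a part of the same cells and the intervals are wide, so the count of 57 is a description. Among cells at or under the median mitochondrial percent of all cells (5.57%), cholangiocytes were 11.1% of the class in shZdhhc17 and 8.70% in shSCR, since that limit lies below the cholangiocyte medians. With 30 neighbours the share of the own type was 80% for cholangiocytes, which is the most that 25 cells allow. The ratio of the class was 1.03 among cells other than cancer cells, and the cholangiocyte ratio 1.19 at low mitochondrial percent, with 2 cells in each library. Without the deepest 5% of cells the median mitochondrial percent of shZdhhc17 hepatocytes was 0.247, against 2.48 with all cells. This still counts among the 57, because the interval is wide. No paired analysis was possible because each group is 1 pooled library. Depth limits the results: with 36 cells in shZdhhc17 and 43 in shSCR the ratio of the class is known only within 0.555 to 1.42.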
